A study of Xenopus laevis with 12 samples.

Results

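Retinoic acid (RA) at 500 nM was compared with RA at 200 nM in cultured foregut endoderm of Xenopus laevis, the African clawed frog. The comparison used 6 of the 12 RNA-seq libraries of the study, all those labelled 500 nM RA (replicates 1 to 3) and 200 nM RA (replicates 1 to 3). The 3 vehicle libraries, cultured with 0.1% DMSO, are shown as a reference level, and the 3 libraries at 25 nM RA entered only the filter on low counts, the scaling and the estimate of the spread. All embryos were wild type (stock NXR_0031), and the labels name no transgene or mutation in any group. Explants of foregut endoderm were taken at Nieuwkoop-Faber (NF) stage 15, exposed to RA or vehicle in culture (15 °C, about 16 hours) and collected at NF stage 25, 8 explants to a pool and 1 pool to a library. The labels count a pool as a biological replicate but do not tie pools to clutches or days, so p-values here reflect the spread among pools and nothing wider.

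RA is made in the embryo from vitamin A by aldehyde dehydrogenases and removed by Cyp26 enzymes, and the balance of source and sink sets the dose that a cell receives. Inside the nucleus it binds retinoic acid receptors, which pair with retinoid X receptors on DNA and raise or lower the transcription of target genes. In the foregut, the tissue from which lung, liver and pancreas form, RA signalling is known for its part in organ patterning.

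The deposited tables give gene IDs without names, and 0 of them matched a RefSeq gene table of Xenopus laevis. The results are therefore given for groups of IDs defined by their difference, and 4 IDs chosen by rule are described singly without interpretation. No gene list, sequence or cell type marker was used, and the labelled tissue was not checked against markers. In a pool of tissue, fewer cells of a type and less RNA per cell cannot be told apart.

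The DMSO libraries held 17782601 to 24513744 counts, the 200 nM libraries 23543242 to 29901907 counts and the 500 nM libraries 21619433 to 39147729. Libraries stood apart within both groups in some measures, while rank correlations within a group were close. Between replicates at 500 nM, the Spearman correlation across IDs was 0.993 for replicates 1 and 3, 0.989 for replicates 1 and 2, and 0.991 for replicates 2 and 3. At 200 nM it was 0.991, 0.992 and 0.992 for the same pairs. Replicate 2 at 500 nM and replicate 3 at 200 nM had stood apart from their groups in earlier results of these data, and the main counts were also computed without them. Among IDs with a mean of at least 10 counts over all 12 libraries, 32 form 11 sets with the same count in every library. Weaker IDs were not searched. In 200 nM replicate 1, 15.6% of counts fell on these 32 IDs, against 4.23% and 4.57% in the other 200 nM libraries. At 500 nM the share was 2.28% to 6.61%. Of these 32 IDs, 2 were called between the doses, both higher at 500 nM, where 29.1% of all IDs tested were called. IDs of a set share their counts and are not separate measurements.

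Many IDs differed between the doses, most of them by little, and the large differences ran mainly downwards. Of 24454 IDs tested with edgeR's quasi-likelihood test, 7114 (29.1%) had a Benjamini-Hochberg adjusted p under 0.05, with 3423 (14.0%) higher and 3691 (15.1%) lower at 500 nM. The median size of the difference was 0.34 on the log2 scale among the higher IDs and 0.40 among the lower IDs, a ratio of 1.27 and 1.32. At least 2-fold differences were held by 256 higher IDs (1.05% of those tested) and 966 lower IDs (3.95%), so that the lower ones were 3.77 times as many. At least 4-fold differences were held by 27 higher and 418 lower IDs. The 4-fold numbers were not recomputed with libraries left out. The IDs at least 2-fold lower were weak at 500 nM, with a median group mean of 0.478 CPM. Relative to the 200 nM mean, their median log2 CPM was -2.35 in 500 nM replicate 2, against -1.36 and -1.61 in replicates 1 and 3. With 500 nM replicate 2 and 200 nM replicate 3 both left out, 202 IDs were at least 2-fold higher and 843 lower, and 159 and 762 of these were among those called with all libraries. With limma on log2(TPM + 1), 34 IDs were at least 2-fold higher and 244 lower, and without a filter on low values 35 and 288. With limma on log2(TPM + 0.1) they were 79 and 369. Fold changes on these scales are of the value plus the pseudocount.

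**Figure D1:**
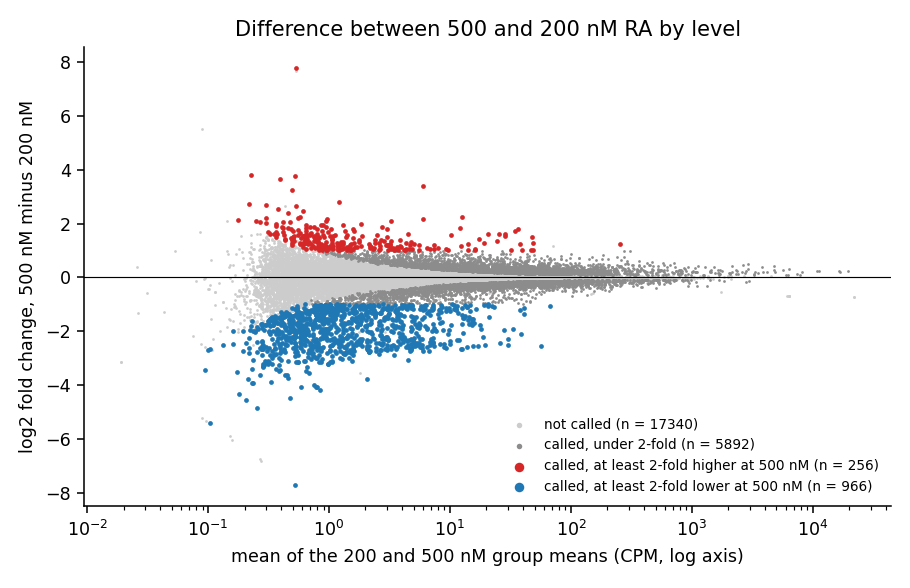
Each point is 1 of the 24454 IDs tested, with the mean of both dose groups in CPM (counts made comparable across library sizes, log axis) against the log2 fold change of 500 nM minus 200 nM. The 256 IDs at least 2-fold higher (red) and 966 at least 2-fold lower (blue) lie mostly at low levels, and the blue points outnumber the red.

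Large differences were found mostly among weakly expressed IDs, and calls were most frequent among strongly expressed IDs. In the lowest quartile of IDs by mean level over the 6 libraries (up to 1.71 CPM), 15.2% were called, and this quartile held 169 of the 256 IDs at least 2-fold higher and 616 of the 966 at least 2-fold lower. In the highest quartile (23.3 CPM and above), 50.8% were called, but 14 were at least 2-fold higher and 11 lower. The precision differed in the same order, with a median standard error of 0.42 on the log2 scale in the lowest quartile and 0.052 in the highest. A small difference was thus detectable mainly at high levels. The median log2 fold change of all IDs tested was -0.0088, so the scaling placed the doses level overall.

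Weighed by RNA, the large differences were a minor part of each library. The 966 lower IDs held 0.423 ± 0.0444% of all counts at 200 nM and 0.123 ± 0.0413% at 500 nM, with 0.407 ± 0.00353% in DMSO (SD, n = 3 each). The 256 higher IDs held 0.0717 ± 0.00455% at 200 nM, 0.177 ± 0.0158% at 500 nM and 0.138 ± 0.00491% in DMSO (SD, n = 3 each). All 3423 IDs called higher held 37.8 ± 3.25% at 200 nM, 44.5 ± 2.05% at 500 nM and 36.6 ± 0.445% in DMSO (SD, n = 3 each). All 3691 IDs called lower held 18.3 ± 1.27% at 200 nM, 15.5 ± 0.298% at 500 nM and 20.9 ± 0.211% in DMSO (SD, n = 3 each). These sets were chosen by the same values, so their shares describe them and were not tested.

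IDs were described singly where they were called, reached a mean of at least 5 CPM in the higher group and did not overlap between the doses, and the 2 largest rises under this rule differed in their place against DMSO. XBXL10_1g13789 stood at 1.54, 1.03 and 0.499 CPM in 200 nM replicates 1, 2 and 3 and at 10.1, 12.4 and 10.3 CPM at 500 nM. Its DMSO libraries were at 1.08, 1.26 and 2.07 CPM. All 3 libraries at 500 nM were far above every 200 nM and DMSO library, while the 200 nM and DMSO values overlapped. The log2 fold change was 3.40 (SE 0.31), at an edgeR adjusted p of 3.86e-08. The group means were 1.02 ± 0.521 and 10.9 ± 1.26 CPM (SD, n = 3 each).

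XBXL10_1g41031 stood at 5.30, 3.62 and 4.11 CPM at 200 nM and at 20.3, 21.1 and 20.4 CPM at 500 nM. In DMSO it stood at 25.8, 24.3 and 24.0 CPM. All 500 nM values were above all 200 nM values and below all DMSO values, so this ID was low at 200 nM and lay nearer to the vehicle level at 500 nM. The log2 fold change was 2.24 (SE 0.15), with an edgeR adjusted p of 2.78e-10.

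The 2 largest falls under the same rule were both highest at 200 nM, and, as for rises, some larger changes were called among IDs that did not meet the rule. XBXL10_1g9129 stood at 8.19, 9.42 and 6.56 CPM at 200 nM, and at 1.72, 0.0464 and 0.761 CPM in 500 nM replicates 1, 2 and 3. The DMSO libraries were at 1.81, 1.70 and 2.31 CPM. Every 200 nM library was above every DMSO and 500 nM library, and the 500 nM libraries did not share a level, with 65, 1 and 17 counts. The log2 fold change was -3.07 (SE 0.61), with an edgeR adjusted p of 0.00398. It was -4.28 without 500 nM replicate 1 and -2.60 without 500 nM replicate 2, with edgeR adjusted p-values of 0.0005 and 6.17e-07. Over all alternatives with a value, adjusted p-values of edgeR, DESeq2 or limma ranged from 1.34e-08 to 0.0345.

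XBXL10_1g1138 stood at 6.91, 6.62 and 4.76 CPM at 200 nM and at 1.27, 0 and 0.985 CPM at 500 nM. In DMSO it stood at 1.49, 2.09 and 2.03 CPM. The 500 nM values were below all DMSO values and the 200 nM values above them, and the lowest library of each dose was again 500 nM replicate 2 and 200 nM replicate 3. The log2 fold change was -2.89 (SE 0.59), with an edgeR adjusted p of 0.00436. Without 500 nM replicate 1 it was -3.60, and without 500 nM replicate 2 it was -2.40, with edgeR adjusted p-values of 0.00412 and 7.71e-12. The range of adjusted p-values over the alternatives in edgeR, DESeq2 and limma was 1.01e-12 to 0.0449.

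**Figure D2:**
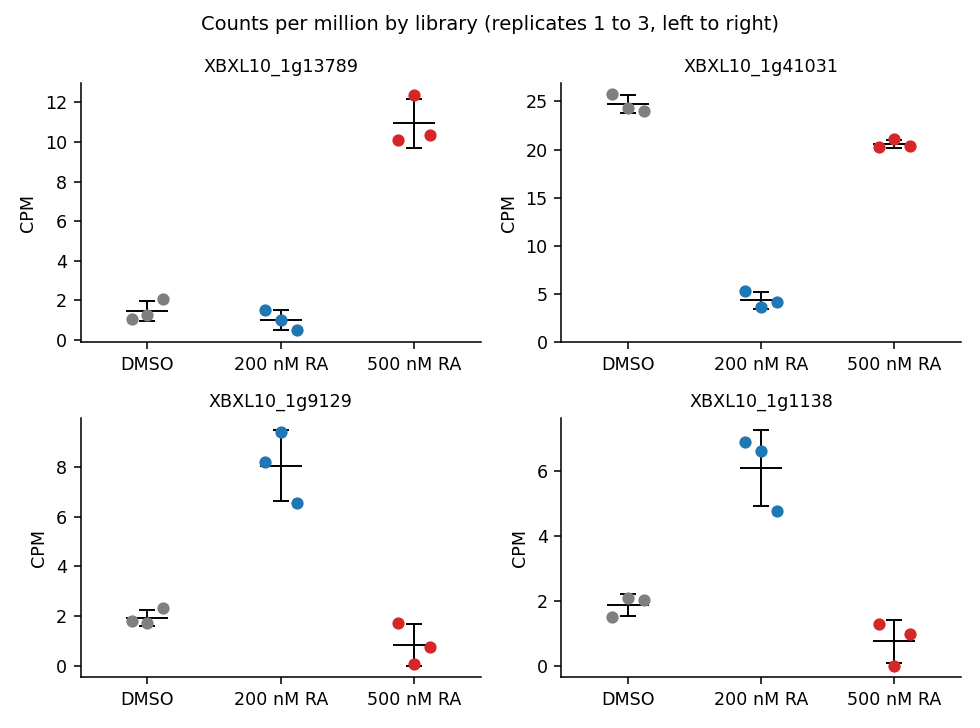
CPM of the 4 IDs in each library, with DMSO, 200 nM and 500 nM RA on the horizontal axis, points for replicates 1 to 3 from left to right, and the mean with SD in black. Among these groups, XBXL10_1g13789 is high only at 500 nM, and XBXL10_1g41031 is lowest at 200 nM and highest in DMSO. XBXL10_1g9129 and XBXL10_1g1138 are highest at 200 nM among them, with a lower value in 500 nM replicate 2 than in replicates 1 and 3.

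The IDs at least 2-fold lower at 500 nM fell to a different depth in each 500 nM library. Relative to the 200 nM mean, their median level was -1.36, -2.35 and -1.61 on the log2 scale in replicates 1, 2 and 3. Replicate 2 was the lowest of the 3 libraries for 79.8% of these IDs, against 35.7% of all IDs tested. It was also the shallowest 500 nM library and replicate 1 the deepest. At 200 nM, replicate 3 was the lowest for 68.7% of them, against 36.1% of all IDs tested, with a median of -0.23 where replicates 1 and 2 were at 0.12 and 0.11. The median SD of log2 CPM over these IDs was 0.66 at 500 nM, 0.31 at 200 nM and 0.26 in DMSO. Over all IDs tested it was 0.12, 0.12 and 0.13. The median of the group means of the 966 IDs was 0.478, 1.66 and 1.29 CPM in the same order. Their SD was thus largest where the level was lowest, and the part of level was not tested. All 3 libraries at 500 nM were below all 3 at 200 nM for 940 of the 966 IDs, where 21.0% of all IDs tested were ordered this way. The doses did not overlap for 3488 of all 3691 IDs called lower. The IDs were chosen by these same values, so this order largely follows from the choice.

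The IDs at least 2-fold higher were more even among the 500 nM libraries than the lower ones. The sets differed in level there, with median group means of 1.53 CPM (higher IDs) and 0.478 CPM (lower IDs). For the higher IDs, the median level was 1.17, 1.38 and 1.29 log2 units above the 200 nM mean in 500 nM replicates 1, 2 and 3. Replicate 1 was the lowest 500 nM library for 52.3% of them and replicate 2 for 16.0%. Over all IDs tested these shares were 33.0% and 35.7%. Replicate 2 thus had the largest median difference from 200 nM in both sets, and replicate 1 the smallest. The median SD of log2 CPM of the higher IDs was 0.24 at 500 nM, 0.33 at 200 nM and 0.33 in DMSO. The median of their group means was 1.53, 0.599 and 0.830 CPM in the same order, so the SD was smallest where the level was highest. No overlap between the doses was seen for 250 of the 256 IDs, where 19.9% of all IDs tested were ordered this way. It was also absent for 3250 of all 3423 IDs called higher, and it largely follows from the choice of IDs by these values.

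**Figure D3:**
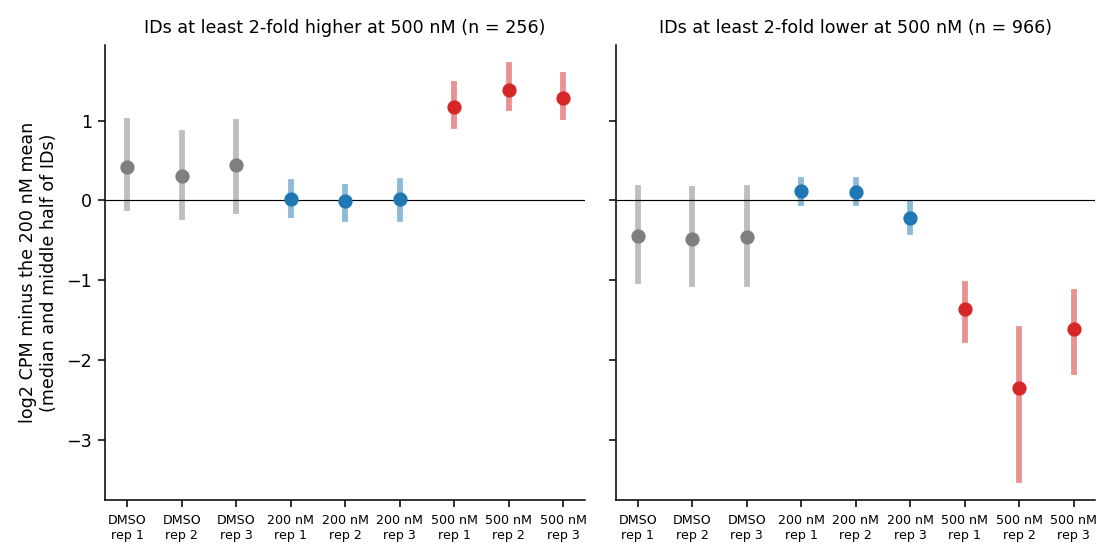
Level of the 256 IDs at least 2-fold higher (left) and the 966 at least 2-fold lower (right) at 500 nM, as log2 CPM minus the mean of the 200 nM group, in each DMSO, 200 nM and 500 nM library. Points are medians over IDs and bars run from the lower to the upper quartile of IDs; the higher IDs sit at 1.17 to 1.38 in all 500 nM libraries, while the lower IDs reach -2.35 in replicate 2 and -1.36 and -1.61 in replicates 1 and 3.

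Because the IDs above were chosen with the libraries that describe them, they were also chosen without 1 library of each dose and read in the pair left out, for all 9 such pairs. Among IDs called at least 2-fold lower in the remaining libraries (696 to 1042), 95.3% to 98.0% were lower in the left-out 500 nM library than in the left-out 200 nM library. The median log2 ratio in the left-out pair was -2.29 to -2.75 when 500 nM replicate 2 was left out. It was -0.997 to -1.37 for replicate 1 and -1.26 to -1.59 for replicate 3. Among IDs called at least 2-fold higher (159 to 291), 91.1% to 98.7% were higher in the left-out pair, with a median of 0.80 to 1.23. This median was 1.11 to 1.23 when 500 nM replicate 2 was left out, 0.80 to 0.94 for replicate 1 and 0.92 to 1.02 for replicate 3. Over all IDs tested, the median log2 ratio in the left-out pair was -0.012 to -0.0039. In each left-out pair most of the chosen IDs kept the direction of the remaining libraries. The size of the fall, and to a smaller extent of the rise, varied with the 500 nM library read. The 9 pairs share libraries, so they are not independent of one another.

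Some IDs were detected at only 1 of the doses. With at least 10 counts in all 200 nM libraries and at most 3 in all 500 nM libraries, 16 IDs were present at 200 nM alone, and 3 met the reverse condition. Against a floor of 3 counts per library, the 16 were at least 3.67-fold lower and the 3 at least 6.26-fold higher at 500 nM. In DMSO, 2 of the 16 and 1 of the 3 also had at most 3 counts in every library. At least 10 counts in every DMSO library were held by 1 of the 16 and 0 of the 3, so most met neither condition there. Single libraries differed more: of 22468 IDs with at least 10 counts in all 200 nM libraries, 35, 454 and 162 had at most 3 counts in 500 nM replicates 1, 2 and 3. Replicate 1 was the deepest library. With all 6 libraries thinned to 21619433 counts, the numbers were 74, 380 and 130 of 21868.

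Set beside DMSO, small and large differences between the doses were placed differently. Of the 3423 IDs higher at 500 nM, 2226 (65.0%) had a DMSO mean below both doses, so that the means stood in the order DMSO, 200 nM, 500 nM. Of the 3691 lower IDs, 2026 (54.9%) had a DMSO mean above both doses, the same order downwards. These places are orders of means, with no test against DMSO. Among the 256 IDs at least 2-fold higher, 163 (63.7%) had a DMSO mean between the doses and 62 a DMSO mean below both. Among the 966 at least 2-fold lower, 651 (67.4%) had a DMSO mean between the doses, with 200 nM above DMSO and 500 nM below it, and 266 a DMSO mean above both. All 3 DMSO values lay strictly between the 3 values of either dose for 29 of the 256 (11.3%) and 199 of the 966 IDs (20.6%). The same held for 4.38% of all IDs called higher, 7.99% of all called lower and 1.87% of all IDs tested. Over all IDs tested, whichever dose was higher, the DMSO mean lay between the doses for 24.3%, below both for 38.6% and above both for 37.0%. For IDs higher at 500 nM, the share with DMSO between the doses was 23.0% at ratios under 1.5 and 66.7% at 4-fold or more. For IDs lower at 500 nM the shares were 24.9% and 76.1%. A wider gap between the doses leaves more room for the DMSO mean, and the choice of IDs by their 200 nM libraries favours an extreme level there, so these shares are a description. With 500 nM replicate 2 and 200 nM replicate 3 left out, DMSO lay between the doses for 60.9% of the IDs at least 2-fold higher and 70.7% of those lower.

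In the median over IDs, the DMSO libraries lay nearer to 200 nM than to 500 nM for both sets. For the IDs at least 2-fold higher, the DMSO libraries were 0.30 to 0.44 log2 units above the 200 nM mean, and for those at least 2-fold lower they stood at -0.44 to -0.48. The lower and upper quartiles of IDs in DMSO replicate 1 ran from -0.097 to 1.00 in the first set and from -1.02 to 0.15 in the second, so that both sets hold IDs on either side of the 200 nM level in DMSO. By share of all counts, the first set in DMSO (0.138%) lay nearer to 500 nM (0.177%) than to 200 nM (0.0717%). The second set in DMSO (0.407%) lay nearer to 200 nM (0.423%) than to 500 nM (0.123%) by this measure too.

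**Figure D4:**
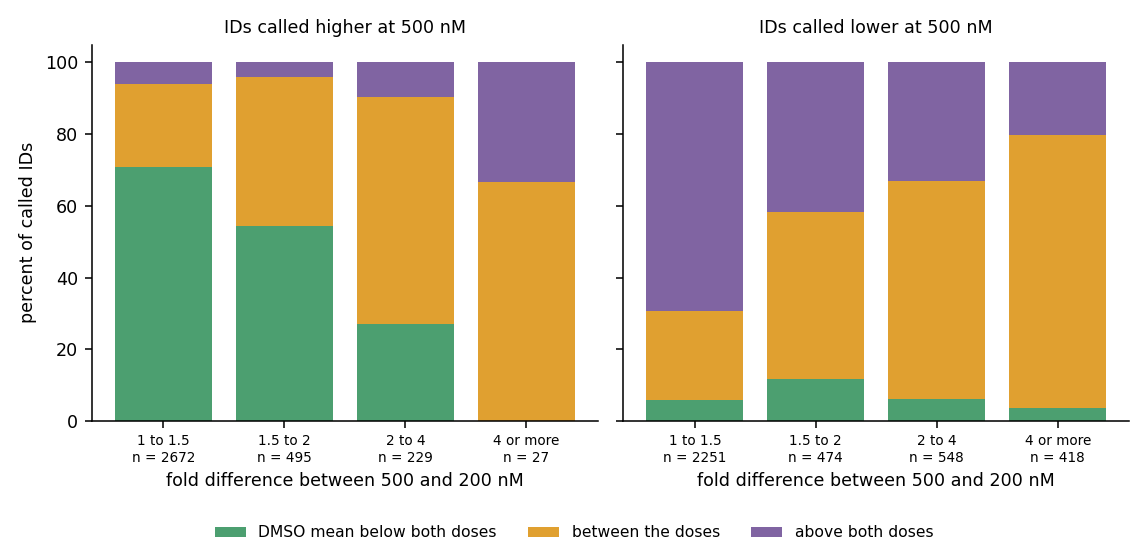
Percent of the IDs called higher (left) or lower (right) at 500 nM whose DMSO mean lay below both doses, between them or above both, by the fold difference between the doses (horizontal axis, n under each bar). From ratios under 1.5 to ratios of 4 or more, the share with DMSO between the doses goes from 23.0% to 66.7% for higher IDs and from 24.9% to 76.1% for lower IDs.

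Some of the large differences were held by IDs with neighbouring numbers. What the numbering follows is not given in the sources used here, so a run of numbers is not read as a place in the genome. Of the 256 IDs at least 2-fold higher, 25.8% had another such ID within 10 numbers, while 10.5% of all IDs tested had 1 that near. Of the 966 at least 2-fold lower, 47.2% had another within 10 numbers, against 37.3% of all IDs tested. Runs of 5 or more with gaps of at most 10 held 22 of the higher IDs in 3 runs and 29 of the lower IDs in 5 runs. These runs were chosen after their values were seen, and near-identical copies could share reads.

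The longest run of higher IDs had 9 members within 16 numbers. Its summed level was 105, 97.6 and 80.6 CPM at 200 nM and 278, 293 and 276 CPM at 500 nM, with 443, 438 and 450 CPM in DMSO. A run of 8 within 18 numbers, which includes XBXL10_1g41031, had sums of 90.0, 74.1 and 60.5 CPM at 200 nM, 227, 245 and 228 CPM at 500 nM and 319, 316 and 331 CPM in DMSO. Both runs were highest in DMSO, lowest at 200 nM and in between at 500 nM in every library, with a ratio of 500 to 200 nM of 2.98 and 3.12. The third run, of 5 IDs, was highest at 500 nM, with means of 3.30 ± 0.301 CPM at 200 nM, 9.35 ± 1.65 CPM at 500 nM and 4.41 ± 0.718 CPM in DMSO (SD, n = 3 each).

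The longest run of lower IDs had 8 members within 13 numbers. It summed to 15.2, 18.2 and 13.1 CPM at 200 nM, 4.16, 1.67 and 4.03 CPM at 500 nM and 14.7, 12.02 and 13.3 CPM in DMSO. A run of 6 within 9 numbers summed to 119, 109 and 82.6 CPM at 200 nM, 36.0, 14.4 and 26.3 CPM at 500 nM and 69.5, 70.3 and 70.9 CPM in DMSO. The first run overlapped between DMSO and 200 nM, the second was above DMSO at 200 nM, and both were lowest in 500 nM replicate 2. Over the 5 runs of lower IDs, the 500 nM mean was 0.212 to 0.404 of the 200 nM mean.

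**Figure D5:**
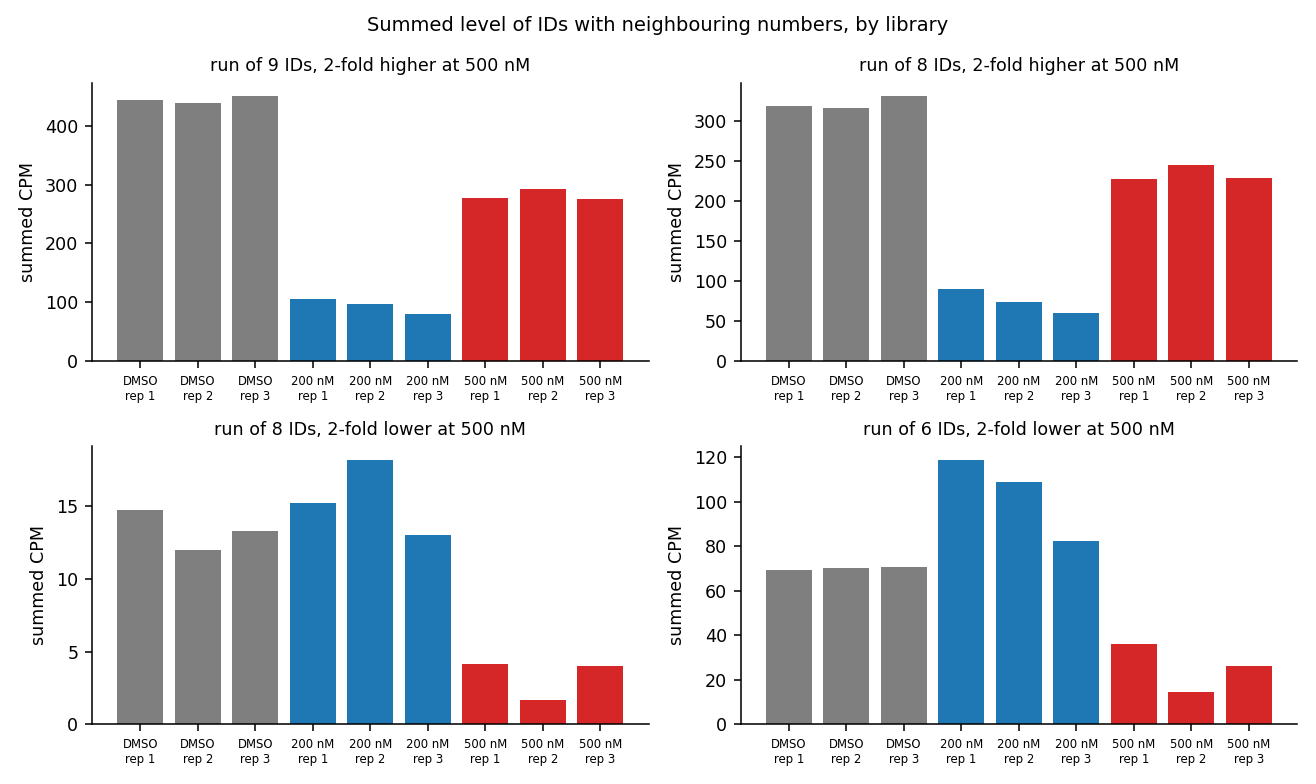
Summed CPM in each DMSO, 200 nM and 500 nM library for the longest 2 runs of neighbouring ID numbers among the IDs at least 2-fold higher (top) and lower (bottom) at 500 nM. In the top panels DMSO is highest and 200 nM lowest; in the bottom panels all 500 nM libraries are lowest, and replicate 2 among them has the least.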

How the data were processed

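RNA-seq libraries were made from mRNA with a stranded kit, per the labels' protocols. The authors deposited expected counts per gene ID, already whole numbers that rounding left as they were, and TPM, scaled to transcript length and to a fixed total per library. RSEM 1.3.0 and Bowtie2 are named, per the submitters' processing notes. The order of these tools, the build and the annotation were not given in the sources used here. Where copies are similar, RSEM shares reads among them, so counts of near-identical genes, such as L and S copies, are estimates.

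Of 44479 rows, 1 names no gene, holds a count of 0 and was left out. The counts went into edgeR 4.0.16 (R 4.3.3): filterByExpr (minimum count 10), TMM, and a robust quasi-likelihood fit of 4 groups over 12 libraries, with the contrast 500 minus 200 nM and Benjamini-Hochberg adjustment over all 24454 IDs tested. Standard errors come from the fit, with counting error as the lower bound. CPM are TMM-scaled, and log2 CPM use a prior count of 2. Counting intervals and floors cover counting error only. The edgeR steps were also run on simulated counts with few changed IDs and no library that stood apart. That run does not cover data with many changes or displaced libraries, as here.

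Singly described IDs had an adjusted p under 0.05, at least 5 CPM in the higher group and no overlap of the doses; the 2 largest rises and 2 largest falls were taken. The members, rules and tests were chosen with earlier results of these data known. Alternatives were DESeq2 1.42.0, its size factors, other filters, limma 3.58.1 on TPM, thinning, a replicate block and fewer libraries. Deviations from the group means correlated at -0.0502 to 0.107 between same-numbered libraries of the doses. For differently numbered libraries the range was -0.133 to 0.147. Numbers were not taken as pairs. With 3 libraries to a dose, these values cannot show whether equal numbers mark a shared clutch or day. Chi-square over degrees of freedom was 2.83 to 80.6 between replicates of a dose, above sampling noise, so each library counts once. It was 80.6 in both pairs with 200 nM replicate 1, against 3.05 for replicates 2 and 3. In the pairs with 500 nM replicate 2 it was 26.3 and 24.2, against 2.83 for replicates 1 and 3.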

Additional observations from a re-analysis of the deposited data

How the results depend on the processing

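Of 90 alternative counts, 75 were within 1.5 times the reported ones, and the 70 alternative log2 fold changes of the 4 IDs had the reported direction with an adjusted p under 0.05 in the tool used; XBXL10_1g9129 had no value in the limma fits with a filter. With at least 1 CPM in 3 libraries, 162 IDs were at least 2-fold higher and 700 lower, from fewer IDs tested. Limma on log2(TPM + 1) called 4022 IDs (1746 higher, 2276 lower), with 34 and 244 past 2-fold. On log2(TPM + 0.1) these were 4001, 1706, 2295, 79 and 369. On log2(TPM + 1) without a filter they were 4058, 1594, 2464, 35 and 288. These fits differ in test, unit and filter, and the cause was not tested. Leaving out 1 library of either dose in turn gave 5598 to 6809 calls, 187 to 288 at least 2-fold higher and 815 to 1060 lower. DESeq2 gave 6242 calls, the 6 libraries alone 6806 (3495 higher, 3311 lower), and thinning to the shallowest library 6446. Library sizes without the 50 most counted IDs gave 3731 higher and 3338 lower. With a replicate block 7079 IDs were called, 253 and 944 of them at least 2-fold higher and lower, and the block changed no call of the 4 IDs. The place of DMSO between the doses under alternatives, and the thinning of the 6 libraries, were added after seeing the data; the share at least 2-fold higher with DMSO between was 56.8% with the 1 CPM filter, and the share lower was 71.4% without 200 nM replicate 3. On log2(TPM + 1) the median levels of the sets in the 500 nM libraries were smaller, at 0.49 to 0.62 and -0.55 to -0.76.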

Other observations

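Relative transcript length was taken as deposited counts per TPM, divided by the library's median over well counted IDs. Its median was 0.984 over all IDs tested, 0.964 for those at least 2-fold higher at 500 nM and 1.14 for those at least 2-fold lower. In the shortest quartile of IDs 1.31% were at least 2-fold higher and 3.04% lower, and in the longest quartile 0.818% and 5.17%. The median log2 fold change of all IDs was -0.0023 in the shortest quartile and -0.038 in the longest.

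Set against the mean of the other libraries of its group, 500 nM replicate 2 had 830 IDs at least 2-fold below and 236 at least 2-fold above. The values were 207 and 571 for replicate 1, and 282 and 385 for replicate 3. For the 200 nM libraries they were 238 and 262, 276 and 224, and 326 and 196, and for the DMSO libraries 384 to 456 below and 352 to 371 above. At 500 nM, depth was lowest in replicate 2 (21619433 counts), then replicate 3 (23181210), and highest in replicate 1 (39147729). The numbers of IDs below ran in the reverse order. DMSO replicate 2 was shallower, at 17782601 counts, with 456 IDs below. At 200 nM, replicate 3 was deeper than replicate 2 and had more IDs below. The part of depth was not tested.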
